A study of Homo sapiens with 20 samples.

Results

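The guides described here are 145 sets of 4 consecutively numbered guide RNAs (580 guides) that became mildly less abundant over 14 days of RfxCas13d induction in HAP1 cells, out of 4044 sets (16176 guides) that had all 4 guides in the tables of both HAP1 and HEK293FT. A set was a member when the mean change of its 4 guides in HAP1 lay between -1 and -0.4 on the log2 scale and at least 3 of the 4 guides lay below -0.3. The change is the mean log2 signal at day 14 less the mean log2 signal at day 0, after each library was set to the level of its non-targeting guides. The members were therefore chosen on HAP1 values, which are given as a description without a test. HEK293FT values played no part in the choice, and the tests were run on them.

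The libraries were amplicons of the guide cassette from genomic DNA of pooled screens, and the signal of a guide is its normalised abundance in a library. The groups are HAP1 at day 14 and at day 0, and HEK293FT at day 14 and at day 0, each with 2 libraries. All 8 came from cells with a doxycycline-inducible, nuclear RfxCas13d, transduced with a lentiviral guide library in separate infection replicates, selected with puromycin and then given 1 µg/ml doxycycline with puromycin and blasticidin. Whether same-numbered libraries of the days share an infection is not stated. HAP1 is a near-haploid line derived from chronic myelogenous leukaemia, and HEK293FT a line derived from embryonic kidney. The labels do not say whether either line was a single clone. No library of cells without the nuclease is used here.

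RfxCas13d is an RNA-guided RNase. Its guide pairs with a transcript, the enzyme cuts that RNA, and once activated it can also cut other RNAs nearby. In a growth screen each cell carries a single guide, so guides whose targeting slows growth become rarer in the population with time. Guide sequences and targets were not used here, since the tables give guides by number alone, and guides are named below by those numbers. That a set shares a target is not stated in the tables. The guides of a set are not replicates, and the comparison of days rests on 2 libraries against 2.

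In HAP1 the members had a median change of -0.65, and single sets ranged from -0.995 to -0.40. Their guides had a median of -0.63 and ranged from -2.48 to 0.66. Of the 580 guides, 480 lay below -0.3 and 118 lay below -1, while 35 lay above 0. All 4 guides lay below -0.3 in 45 sets, and 3 of 4 did so in 100 sets, so the label of a consistent loss holds fully for the smaller group. The SD over the 4 guides of a set had a median of 0.42 and ran from 0.02 to 1.15. The mildness of a set mean was thus in some sets a mean over strongly unequal guides.

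Both HAP1 libraries of day 14 carried the loss. Against the mean of day 0, the median change of the 145 sets was -0.63 in day 14 replicate 1 and -0.69 in replicate 2, and it was 0.04 and 0.03 over all 4044 sets. The median set signal of the members was 73.4 and 68.8 at day 14, against 104 and 112 at day 0. In 145 of 145 sets both day 14 libraries lay below both day 0 libraries, as they did in 24.0% of all sets. The rule used this contrast, so nothing is read from this count.

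The set gID_12085 to gID_12088 lies at the median of the members. Its mean signal (geometric mean of the 4 guides) was 243 and 201 at day 14 in HAP1, against 344 and 346 at day 0, so the days did not overlap. Its guides changed by 0.01, -0.79, -0.88 and -0.94 in the order of their numbers. In HEK293FT its signal was 306 and 376 at day 14, against 659 and 342 at day 0, a change of -0.49 ± 0.24 (SE, n = 2 libraries a day; limma adjusted p = 0.395). The days overlapped there. A single guide, gID_12087, had a signal of 3054 in day 0 replicate 1 of HEK293FT, against 264 in day 0 replicate 2. Without day 0 replicate 1 the change of the set was -0.0077, and without day 0 replicate 2 it was -0.96, so its size in HEK293FT rests on day 0 replicate 1. With the replicate number as a block the set passed the threshold of limma (adjusted p = 0.000556). Between the days, however, its signal went from 659 to 306 in replicate 1 and from 342 to 376 in replicate 2. The replicate numbers were not taken as pairs, so nothing is read from this pass.

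The members whose guides changed most evenly in HAP1 were gID_02693 to gID_02696 and gID_12385 to gID_12388. In HAP1 the guides of gID_02693 to gID_02696 changed by -0.58, -0.63, -0.60 and -0.61, an SD of 0.02. Its signal was 412 and 369 at day 14, against 579 and 604 at day 0. The guides of gID_12385 to gID_12388 changed by -0.57, -0.62, -0.64 and -0.65, an SD of 0.03. Its signal in HAP1 was 247 and 253 at day 14, against 338 and 432 at day 0. In both sets every guide shared the mild change.

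At the other end, gID_01205 to gID_01208 and gID_15917 to gID_15920 had the most uneven guides. In HAP1 the guides of gID_01205 to gID_01208 changed by 0.25, -0.52, -1.04 and -2.48, an SD of 1.15 around a mean of -0.94. Its signal was 42.5 and 43.9 at day 14, against 76.1 and 90.002 at day 0. The guides of gID_15917 to gID_15920 changed by 0.46, -0.44, -1.70 and -1.93, an SD of 1.12 around a mean of -0.90. Its signal was 40.6 and 50.1 at day 14, against 84.1 and 83.7 at day 0. In HEK293FT neither set was lower, at 0.22 and 0.06.

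Sets on either side of a limit of the rule differed by little in HAP1. Just inside the lower end lay gID_11569 to gID_11572 at -0.995 and gID_02025 to gID_02028 at -0.98, and just outside it gID_11565 to gID_11568 and gID_09725 to gID_09728, both at -1.01. Just inside the upper end lay gID_14953 to gID_14956 and gID_07533 to gID_07536, both at -0.40, and just outside it gID_16525 to gID_16528 at -0.398 and gID_08477 to gID_08480 at -0.39. The set gID_08477 to gID_08480 had all 4 guides below -0.3 and an SD of 0.08. For the limit on guides, the third-lowest guide of gID_06009 to gID_06012 was at -0.301, and that of gID_01417 to gID_01420, which was left out, was at -0.296.

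As a further description of HAP1, the same rule was applied to a single replicate number and the change was read in the other. On the replicate 1 libraries 170 sets met the rule, with a median change of -0.64 there. In the replicate 2 libraries the median of these 170 sets was -0.58, against 0.01 over all sets. Of them, 150 (88.2%) lay below 0 in replicate 2, against 47.9% of all sets, and 64 (37.6%) met the whole rule again, against 4.38% of all sets. With the numbers exchanged, 177 sets were chosen at -0.66, and their median in replicate 1 was -0.41, with 157 below 0 and 64 again meeting the rule. Most sets chosen on 1 pair of libraries were thus also lower in the other pair, but most did not meet the whole rule there. Both pairs belong to the HAP1 libraries that chose the members, and guide numbers followed the HAP1 outcome, as described below. The values are therefore not independent evidence for the loss, and they were not tested.

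The same rule was applied to non-targeting guides. When they were put into sets by their own numbers, 1 of 249 complete sets (0.402%) met the rule, at -0.45 in HAP1 and -0.02 in HEK293FT. Targeting sets met it in 3.59% of cases. The non-targeting sets ranged from -0.45 to 0.35 in HAP1 with an SD of 0.11, and single non-targeting guides lay below -0.3 in 9.84% of cases. Each library had been set to the level of these same guides. The 2 kinds of guide also differ in abundance. At the higher of the 2 levels described below stood 94.5% of non-targeting guides, against 12.5% of targeting sets. The 2 rates therefore compare unlike guides.

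In HEK293FT the same sets were lower by a smaller amount. Their median change was -0.12, with a lower quartile of -0.24 and a range from -0.86 to 0.33, and the median over all sets was -0.03. Of 145 members, 129 (89.0%) lay below 0, against 63.1% of all sets. By limma with Benjamini-Hochberg adjustment over 4044 sets, 10 members (6.90%) fell, against 3.14% of all sets, and 1 rose, against 0.0247%. At an unadjusted p under 0.05, 43 members (29.7%) were lower, against 13.0% of all sets. Both day 14 libraries lay below both day 0 libraries in 80 members (55.2%), against 32.4% of all sets, and above them in 6 members (4.14%), against 14.1%. The median ratio of the HEK293FT change to the HAP1 change of a member was 20.1%.

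The count of calls depended on the fit. With the replicate number as a block it was 18 members of 206 called sets. Leaving out a library leaves 1 library on a day, so no count is given for those fits. The members' median change from the mean of day 0 was -0.16 in day 14 replicate 1 and -0.08 in replicate 2, and over all sets it was -0.04 and -0.03. The set mean was at or below -0.4 in 13 of 145 members, against 163 of 4044 sets, and 92 members (63.4%) lay within 0.2 of 0, against 86.3% of all sets. In HEK293FT 10 members met the same rule that had chosen them in HAP1, as did 70 of 4044 sets.

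The sets fell into 2 levels of abundance, and the members were spread unevenly over them. Mean day 0 signal in HEK293FT, which the rule did not use, ran from 64.7 to 205 in 3540 sets and from 275 to 798 in 504 sets, with no set in between. A limit of 250, placed in that gap after the values were seen, separates them. HAP1 day 0 signal gave the same level for all 145 members and for 502 of the 504 high sets. The median day 0 signal in HEK293FT was 467 at the high level and 125 at the low level, and it was 434 for single non-targeting guides. Of the members, 43 (29.7%) stood at the high level, against 12.5% of all sets. Put the other way, 8.53% of high sets and 2.88% of low sets were members. What separates the levels is not given in the tables, and its part in the results was not tested.

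All 10 members that fell in HEK293FT stood at the high level. They made up 23.3% of the 43 high members, against 18.5% called among all 504 high sets, a share near the background. Among the 102 low members limma called 0 lower, against 0.960% of all low sets, and 21 of them (20.6%) had an unadjusted p under 0.05, against 9.49%. The median change in HEK293FT was -0.20 in high members, against -0.12 in all high sets, and -0.10 in low members, against -0.03 in all low sets. The median standard error was 0.08 at either level. High members changed by a median of -0.16 and -0.21 in day 14 replicates 1 and 2, and low members by -0.15 and -0.05. Low members were called with the replicate number as a block (12 of 18 called members at the high level) and with set medians in place of means (9 of 14). The absence of calls at the low level therefore depends on the fit.

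Both day 14 libraries of HEK293FT lay below both day 0 libraries in 30 of 43 high members (69.8%), against 56.0% of high sets, and in 50 of 102 low members (49.0%), against 29.1% of low sets. No test of the difference between members and all sets was run, because the members were chosen with results of these data known.

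Among the called members, the set gID_13945 to gID_13948 was lowest in HEK293FT. Its signal there was 224 and 209 at day 14, against 370.3 and 415 at day 0. In HAP1 it was 202 and 202 at day 14, against 386 and 399 at day 0. The days did not overlap in either line. Its change in HEK293FT was -0.86 ± 0.08 (SE, n = 2 libraries a day; limma adjusted p = 0.000231), and its change in HAP1 was -0.96. All 4 guides lay below -0.3 in both lines, but in a different order. In HAP1 they changed by -0.51, -0.91, -1.17 and -1.26, and in HEK293FT by -1.004, -0.50, -1.55 and -0.36.

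The set gID_16061 to gID_16064 had a signal of 204 and 233 at day 14 in HEK293FT, against 419 and 369 at day 0. In HAP1 it had 233 and 231 at day 14, against 405 and 379 at day 0. Day 14 was lower in every library of both lines. The change in HEK293FT was -0.85 ± 0.10 (SE, n = 2 libraries a day; limma adjusted p = 0.000739), against -0.76 in HAP1. Its guides changed by -0.90, -0.41, -0.88 and -1.22 in HEK293FT.

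The even set gID_02693 to gID_02696 also fell in HEK293FT. It had 355 and 412 at day 14, against 612 and 647 at day 0, a change of -0.72 ± 0.09 (SE, n = 2 libraries a day; limma adjusted p = 0.00193). There its guides were not even, at -1.28, -0.85, -0.16 and -0.57. With gID_16061 to gID_16064 it was one of the 2 called members that were lower in HEK293FT than in HAP1. The second even set, gID_12385 to gID_12388, had 350.5 and 312 at day 14 in HEK293FT, against 381 and 464 at day 0. Its change of -0.35 ± 0.10 (SE, n = 2 libraries a day; limma adjusted p = 0.141) did not pass the threshold. It passed with the replicate number as a block (limma adjusted p = 0.0394), although the replicate numbers were not taken as pairs. Leaving out day 0 replicate 1 gave -0.48 and leaving out day 14 replicate 1 gave -0.43, while leaving out day 0 replicate 2 gave -0.21.

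The set gID_05669 to gID_05672 had 362 and 305 at day 14 in HEK293FT, against 529.5 and 557 at day 0. Its change was -0.71 ± 0.09 (SE, n = 2 libraries a day; limma adjusted p = 0.00241), against -0.76 in HAP1. Its first guide was nearest to 0 in both lines, at -0.18 in HAP1 and -0.04 in HEK293FT, and the last was lowest in both, at -1.72 and -1.30. The set gID_15093 to gID_15096 had 330.2 and 339 at day 14 in HEK293FT, against 484 and 541 at day 0. It changed by -0.61 ± 0.08 (SE, n = 2 libraries a day; limma adjusted p = 0.00254), against -0.91 in HAP1. Its guides held the same order in both lines, at -0.29, -0.50, -0.80 and -0.86 in HEK293FT.

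The other 5 called members are named because they complete the count, after their values were seen. They were gID_05065 to gID_05068 at -0.60, gID_05993 to gID_05996 at -0.49, gID_06721 to gID_06724 at -0.44, gID_08917 to gID_08920 at -0.43 and gID_04641 to gID_04644 at -0.37 in HEK293FT. Their changes in HAP1 were -0.89, -0.91, -0.50, -0.86 and -0.64 in the same order. The call of gID_04641 to gID_04644, at a limma adjusted p of 0.0422, was lost with total signal scaling (0.104), median scaling (0.0775), set medians (0.113) and a fit of all 8 libraries (0.0632). With a HEK293FT library left out, the change of this set ran from -0.43 without day 14 replicate 1 to -0.31 without day 14 replicate 2. A demand for an absolute change of at least 0.5 leaves gID_05065 to gID_05068 as the only called set of these 5. The call of gID_08917 to gID_08920 was lost with total signal scaling (adjusted p = 0.0573) and in a fit of all 8 libraries, and that of gID_06721 to gID_06724 with total signal scaling (adjusted p = 0.0603). Of the 10 called members, 7 had all 4 guides below -0.3 in HAP1. The HEK293FT change of the 10 was between 49.6% and 118% of their HAP1 change, against a median of 20.1% over all members. The call favours a large HEK293FT change and the rule limits the HAP1 change, so a high ratio is built in.

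The set gID_15393 to gID_15396 moved in opposite directions in the lines. In HAP1 its signal was 294 and 360.4 at day 14, against 442 and 428 at day 0, a change of -0.42. In HEK293FT it was 472 and 477 at day 14, against 380.3 and 374 at day 0. It rose there by 0.33 ± 0.07 (SE, n = 2 libraries a day; limma adjusted p = 0.0467), and all 4 of its guides lay above 0. This was the single set of 4044 called higher in HEK293FT. The call was lost with the replicate number as a block (limma adjusted p = 0.0648), with set medians (0.234) and in a fit of all 8 libraries (0.177). A demand for an absolute change of at least 0.5 also removes the call. With any 1 HEK293FT library left out, the change was between 0.32 and 0.35. No call is read from those fits, which leave 1 library on a day.

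The next highest members in HEK293FT did not pass the threshold. The set gID_01205 to gID_01208 had 108 and 109.9 at day 14, against 89.0 and 98.7 at day 0, a change of 0.22 ± 0.09 (SE, n = 2 libraries a day; limma adjusted p = 0.266). The set gID_15925 to gID_15928 had 469 and 482 at day 14, against 439 and 406 at day 0, a change of 0.17 ± 0.08 (SE, n = 2 libraries a day; limma adjusted p = 0.353). In HAP1 it had 249 and 244 at day 14, against 342 and 425 at day 0. Neither set had a guide below -0.3 in HEK293FT.

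Among single guides, 13 of the 580 member guides (2.24%) fell in HEK293FT by limma with adjustment over 17572 guides, against 1.08% of all guides, and 0 rose. They lay in 9 sets, and 11 of them lay in sets that were called as a whole. A block for the replicate number gave 8 member guides among 199 called guides. Below -0.3 in HEK293FT lay 149 member guides (25.7%), against 13.2% of all guides in complete sets and 11.5% of non-targeting guides. In 51 members (35.2%) no guide lay below -0.3 in HEK293FT, against 63.3% of all sets, and in 59 members (40.7%) 1 guide did, against 25.7%. In 20 members (13.8%) 2 guides did, against 7.12% of all sets, in 10 members (6.90%) 3 did, against 2.57%, and in 5 members (3.45%) all 4 did, against 1.26%. Member guides below -1 numbered 118 in HAP1 and 8 in HEK293FT.

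The guide gID_13947 was the lowest member guide in HEK293FT. Its signal was 171 and 142 at day 14, against 437 and 480.4 at day 0, a change of -1.55 (limma adjusted p = 0.000736). In HAP1 it had 182 and 209 at day 14, against 406 and 469 at day 0, a change of -1.17. Its days did not overlap in either line. The guide with the lowest change in HAP1 was gID_01208, at -2.48, and in HEK293FT it was at -0.05.

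Guide numbers ran along the HAP1 change within members. In 132 of 145 members (91.0%) each guide was lower in HAP1 than the guide numbered before it, against 78.8% of all sets. The medians at the 4 places were -0.18, -0.52, -0.73 and -1.10 in HAP1. The first guide lay below -0.3 in 45 members and above 0 in 35, whereas the guides at the other places lay below -0.3 in all 145. How the numbers were given is not stated, and an order this close to the outcome cannot serve as independent evidence for it.

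The same places differed less in HEK293FT. There the medians were -0.07, -0.14, -0.14 and -0.20 in members, against -0.03, -0.03, -0.03 and -0.05 over all sets. The last guide was the lowest of its set in 59 members, the first in 26, the second in 29 and the third in 31. Over all 4044 sets the last guide was also the most frequent lowest one, in 1144 sets, against 988 for the first, 934 for the second and 978 for the third. That guide lay below -0.3 in 39.3% of members, against 15.6% of all sets at that place. The last place was the lowest in both day 14 libraries, at -0.26 in replicate 1 and -0.15 in replicate 2. After the mean of each set was removed, HAP1 and HEK293FT changes correlated at 0.26 over the 580 member guides, which share sets, libraries and the scaling. The same full order was held by 14 members (9.66%) in HEK293FT, against 5.00% of all sets.

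Members with all 4 guides below -0.3 in HAP1 had a median of -0.20 in HEK293FT, and members with 3 such guides had -0.10. Of these 45 and 100 sets, 7 (15.6%) and 3 (3%) fell, against 3.14% of all sets. The groups differed in abundance, since 22 of the 45 but 21 of the 100 stood at the high level. At that level 7 of 22 and 3 of 21 fell, against 18.5% of all high sets, and at the low level 0 fell in either group. Within the high level the medians were -0.26 and -0.09, and within the low level -0.17 and -0.10. The first group also had lower HAP1 means, with a median of -0.77 against -0.58.

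Members at or below -0.8 in HAP1 had a HEK293FT median of -0.21 over 37 sets, members between -0.8 and -0.6 had -0.15 over 51 sets, and members above -0.6 had -0.09 over 57 sets. At the low level alone the medians were -0.19, -0.12 and -0.09 over 25, 30 and 47 sets. Across the 145 members the HAP1 and HEK293FT changes correlated at 0.22 (Pearson) and 0.23 (Spearman), over a range that the rule had narrowed. Over all 4044 sets Pearson's r was 0.68.

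More strongly lost sets were set beside the members. The 249 sets with a HAP1 mean below -1 and at least 3 guides below -0.3 had a HEK293FT median of -0.37, and 84 of them (33.7%) fell, with 56 of these 84 at the high level. Their share at the high level, 30.1%, was close to that of the members, 29.7%. The median ratio of HEK293FT to HAP1 change was 20.4% in these sets and 20.1% in members. The ratio uses the HAP1 values that defined both groups, and it was not tested.

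The 82 sets in the same HAP1 range with fewer than 3 guides below -0.3 differ from the members by the demand for consistent guides. In HAP1 they had a median of -0.58, against -0.65 in members, and a median SD over guides of 0.85, against 0.42. In HEK293FT their median was -0.11, against -0.12 in members, and 6 of 82 (7.32%) fell, against 6.90% of members. They stood at the high level in 14 cases (17.1%). Within that level 4 of 14 fell, against 10 of 43 members and 18.5% of all high sets. At the low level 2 of 68 fell, against 0 of 102 members and 0.960% of all low sets. No difference in HEK293FT between the members and these sets was tested.

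Members were found along the whole numbering, from gID_00097 to gID_16488. Per 1000 numbers there were between 3 and 14 member sets, or between 1.23% and 5.88% of the sets there. In 6 of 3917 pairs of neighbouring sets both were members. High-level sets were also spread along the numbers, with between 19 and 50 per 1000.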

How the data were processed

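Guide tables of the RfxCas13d HAP1 and HEK293FT screens were used (8 of 20 libraries). Their unit is signal, which the authors normalised before they deposited the tables in a way not given in the sources used here. Bowtie 1.1.2 and cutadapt 1.13 appear in the submitters' processing notes, with the build GRCh38. Total counts are not given in them, so the depth is unknown and no counting interval is given. Values without an ID (1 in HAP1, 120 in HEK293FT) were left out, and the log2 values of repeated IDs (17 and 16) were averaged, none of them in a member. Each library's log2 signals were reduced by the mean over its non-targeting guides, with 30% trimmed from each side. No pseudocount was added. No member was removed by a filter.

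Set means of 4 guides, and single guides, were fitted in HEK293FT with limma 3.58.1 (R 4.3.3), day 14 against day 0, 2 libraries each, with a variance trend. A set or guide was called at a Benjamini-Hochberg adjusted p below 0.05 over all sets or guides. Fits were tested on simulated data. Each line has its own table, so the lines were not tested against each other.

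Sets named: the member at the median in HAP1, the 2 most and 2 least even, the 3 lowest and 3 highest in HEK293FT, the 5 called with the smallest adjusted p, and those next to the limits of the rule. Members, sets and rules were chosen with earlier results of these data known. P-values measure the spread between the libraries of a day, which came from separate infections. Counting error is part of that spread and could not be separated from it. Same-numbered libraries of the 2 days deviated oppositely over guides (r = -0.44 in HAP1, -0.33 in HEK293FT), so the numbers were not taken as pairs. Alternatives covered scaling, pseudocounts, a signal minimum, set medians, a replicate block, other variance models and libraries left out.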

Additional observations from a re-analysis of the deposited data

Results flagged for a closer look

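In 6 of the 145 members both HAP1 libraries of day 14 lay below both of day 0 while both HEK293FT libraries of day 14 lay above both of day 0. Both HEK293FT libraries of day 14 lay above both of day 0 in 4.14% of members, against 14.1% of all sets. Among the sets named here, 4 moved oppositely in the lines in this way. The named set gID_15917 to gID_15920 also differed in sign, at -0.90 in HAP1 and 0.06 in HEK293FT, but its days overlapped in HEK293FT. The HAP1 change less the HEK293FT change was -1.16 for gID_01205 to gID_01208 (-0.94 and 0.22), -1.14 for gID_02025 to gID_02028 (-0.98 and 0.16), -0.81 for gID_15925 to gID_15928 (-0.63 and 0.17) and -0.76 for gID_15393 to gID_15396 (-0.42 and 0.33). These differences between the lines were not tested. The HAP1 side of each was fixed by the choice of members, and 3 of these 4 sets were named as the highest members in HEK293FT, which builds in the opposite direction.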

How the results depend on the processing

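The members numbered between 124 and 152 under other scalings, pseudocounts, a minimum mean signal of 50 and set medians, and between 142 and 161 when any 1 HAP1 library was omitted, of which between 111 and 121 were members on all libraries. The HEK293FT median of the fixed 145 members stayed below 0 in each alternative run, from -0.16 without day 14 replicate 2 to -0.05 with total signal scaling, where 97 members were below 0. Omitting any 1 HEK293FT library gave between 12 and 35 members called lower there, a replicate block gave 18, and a demand for an absolute change of at least 0.5 gave 6. For member guides, omission gave between 11 and 36 calls and the block gave 8. With replicate numbers crossed between days, a pairing chosen after seeing the data that favours calls, 32 members and 58 member guides were called lower. That crossed fit called 323 of all sets and 761 of all guides lower. With each signal level fitted apart, also added after seeing the data, 15 members were called, all at the high level. In that fit 133 of all sets were called lower. In every other alternative that kept all libraries, between 7 and 14 members and between 11 and 14 member guides were called lower. Over all sets and all guides, these alternatives called between 78 and 133 sets and between 143 and 210 guides lower. The HEK293FT change of gID_07533 to gID_07536, near 0, was 0.0513 with total signal scaling, 0.0129 with median scaling and between -0.0997 and 0.0587 over the omitted libraries, against -0.0205 as reported. Of 260 values for the 20 named members, 220 kept direction and call, 21 lost the call, 16 gained it and 3 turned. These values include fits with a library left out, whose calls rest on 1 library on a day. The cause of the shifts was not tested. Depth is unknown, so counting error could not be separated from the spread between libraries.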
